A study of Mus musculus with 4 samples.

Results

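The peaks described here are the IgD peaks that lie in or beside the olfactory receptor genes of the mouse autosomes. A peak was taken when its summit, the base with the most IgD fragments, lay inside or within 10000 bp of a protein-coding gene whose symbol starts with Olfr in the RefSeq annotation of GRCm38 (mm10). In pair 1, 146 of 9709 autosomal peaks met this rule, out of 11375 peaks in the list as a whole. In pair 2, 451 of 38270 autosomal peaks did, out of 40628 in all. The annotation holds 1103 such genes on 16 autosomes, and joining neighbours no more than 500000 bp apart gave 52 clusters, 9 of them a single gene.

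The assay was ChIP-seq, the sequencing of DNA that an antibody pulls down with its chromatin, on pro-B cells, early B-lineage cells of the bone marrow, which were sorted from wild-type (WT) mice as B220+, CD43+ and IgM-. An antibody against mouse IgD was used in 2 libraries and mouse IgG, the isotype control, in 2 others, and the labels name no treatment. Each IgD library was set against the IgG library of the same number, and the 2 resulting peak lists are called pair 1 and pair 2. The title of the series concerns a role of nuclear IgD in the regulation of E2f3. Peak lists carry no expression values, so the sorted cell type could not be checked against its markers, and no label tells if each pair had its own mice. With 1 list per pair there is no spread between samples to test against, and no list of IgG peaks was used here, so the values below are counts and levels of each list side by side, without p-values.

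Olfactory receptors are G protein-coupled receptors that bind odorants, and their genes form one of the largest gene families of the mouse. The genes are short, with the coding sequence usually in a single exon, and lie in tandem clusters that grew by duplication, so that neighbours can be close copies of each other. Class I receptors, the fish-like ones, sit together on chromosome 7 and class II receptors on many chromosomes. In an olfactory sensory neuron 1 allele of 1 receptor is transcribed and the other receptor genes are held in compact heterochromatin. The choice depends on Lhx2, Ebf1 and Ldb1, and Ebf1 is at the same time a transcription factor that B-lineage cells require.

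The windows of 300 bases around annotated starts (250 before and 50 after) were available for 938 of the 1103 receptors, from RefSeq on GRCm38.p6. Of the 13 windows that a peak of each list overlapped, 5 are printed here, 5′ to 3′ on the strand of the gene, chosen for the highest peaks of the family, a well-studied gene or their place outside the densest stretch. Olfr1158 (chr2:87989863-87990162, plus strand) and Olfr1160 (chr2:88006727-88007026, minus strand) lie under the highest receptor peak of each list, and capitals mark runs of 20 or more bases that both windows hold. Olfr73 (chr2:88035088-88035387, minus strand) encodes the eugenol receptor mOR-EG. Olfr1262 (chr2:90002158-90002457, plus strand) was the only one of the 13 in a second stretch of chromosome 2, and Olfr930 (chr9:38929923-38930222, plus strand) the only one outside chromosome 2. In these last 3 windows capitals mark the annotated start and the bases after it.
Olfr1158: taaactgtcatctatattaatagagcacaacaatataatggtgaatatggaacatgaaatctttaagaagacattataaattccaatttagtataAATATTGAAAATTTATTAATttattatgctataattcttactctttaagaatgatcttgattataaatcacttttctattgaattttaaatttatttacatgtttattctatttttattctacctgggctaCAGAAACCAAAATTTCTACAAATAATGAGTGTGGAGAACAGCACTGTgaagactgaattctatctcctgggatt
Olfr1160: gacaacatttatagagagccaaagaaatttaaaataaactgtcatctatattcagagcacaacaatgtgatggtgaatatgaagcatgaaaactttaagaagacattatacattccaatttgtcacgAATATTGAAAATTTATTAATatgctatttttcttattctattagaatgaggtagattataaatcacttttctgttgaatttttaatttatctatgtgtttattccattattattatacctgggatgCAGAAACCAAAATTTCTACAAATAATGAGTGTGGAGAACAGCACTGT
Olfr73: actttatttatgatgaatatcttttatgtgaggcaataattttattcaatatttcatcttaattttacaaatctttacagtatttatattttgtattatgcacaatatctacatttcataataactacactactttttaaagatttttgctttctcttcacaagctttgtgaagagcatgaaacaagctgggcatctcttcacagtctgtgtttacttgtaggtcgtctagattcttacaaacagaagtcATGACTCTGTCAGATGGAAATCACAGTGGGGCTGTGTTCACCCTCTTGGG
Olfr1262: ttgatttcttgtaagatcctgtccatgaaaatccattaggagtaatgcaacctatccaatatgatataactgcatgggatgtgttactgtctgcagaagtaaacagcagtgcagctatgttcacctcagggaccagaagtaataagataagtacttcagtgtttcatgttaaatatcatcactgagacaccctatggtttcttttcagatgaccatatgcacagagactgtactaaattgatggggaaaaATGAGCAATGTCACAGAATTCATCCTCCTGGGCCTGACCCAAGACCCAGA
Olfr930: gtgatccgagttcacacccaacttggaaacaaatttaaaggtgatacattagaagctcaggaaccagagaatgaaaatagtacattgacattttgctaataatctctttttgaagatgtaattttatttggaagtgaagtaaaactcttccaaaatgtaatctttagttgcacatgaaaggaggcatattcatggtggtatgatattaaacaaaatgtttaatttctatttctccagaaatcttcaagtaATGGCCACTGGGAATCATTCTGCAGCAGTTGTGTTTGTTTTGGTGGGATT

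The Olfr1158 and Olfr1160 windows shared 67 bases in such runs, 22.3% of each. The annotated start coincided with an ATG codon in 680 of 942 receptor windows (72.2%), against 4.48% of the windows of other protein-coding genes. For most receptors the window therefore covers sequence just before the coding start, and the true transcription start may lie further upstream. Receptor windows were poor in G and C, with a median of 35% against 57.7% in other coding genes. Peaks overlapped 27 receptor windows in pair 1 (2.87%, against 1.36% of all coding promoters) and 58 in pair 2 (6.16%, against 3.88%). Peaks of both lists overlapped 13 (1.38%, against 0.657%), and 12 of these 13 were in a single cluster of chromosome 2. Any shared base counted here, so a wide block can overlap a window while its summit lies far away. For the highest overlapping peaks, summits were 7214 bp in pair 1 and 11210 bp in pair 2 from the start of Olfr1158. At Olfr1155 they were 177 bp and 10931 bp away. These shares are therefore not counts of summits at promoters. The median G and C content of windows with a peak was 32.3% in pair 1 and 34.8% in pair 2, against 35.3% and 35.2% in receptor windows without a peak of that list. What part base composition has in the peaks was not tested.

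Short motifs were searched on both strands of the windows. The motif of the Ebf family, TCCC and GGGA set apart by any 2 bases, was present in 5 of 942 receptor windows (0.531%) and in 1.00% of other coding windows, and in 0 of the 13 windows with a peak of each list, a number too small to read a share from. TAATTA, a core bound by homeodomain factors such as Lhx2, was present in 18.7% of receptor windows and 3.78% of the others, and in 3 of the 13. TATAAA was present in 41.1% of receptor windows and 11.3% of the others, and in 9 of the 13, Olfr1158, Olfr1160 and Olfr73 among them. Both TAATTA and TATAAA consist of A and T alone, and the receptor windows are poor in G and C. Windows that shared at least 1 run of 25 bases with the window of another gene made up 46.2% of the 13, 33.3% of those with a pair 1 peak, 43.1% of those with a pair 2 peak and 34.5% of those with no peak.

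Per length, both lists had more peaks in receptor windows than outside them, and in pair 1 a large share of these peaks lay in few clusters. The windows, each receptor gene with 10000 bp on either side, covered 19.8 Mb, or 0.824% of the autosomal span. They held 7.37 peaks per Mb in pair 1 (95% exact Poisson interval 6.22 to 8.67), against 4.01 outside, a ratio of 1.84. In pair 2 they held 22.8 peaks per Mb (20.7 to 25), against 15.9 outside, a ratio of 1.43. These intervals cover counting error only, and peaks that lie in runs are not independent of each other. The 3 clusters with the most peaks held 101 of the 146 receptor peaks of pair 1 (69.2%) and 175 of the 451 of pair 2 (38.8%). Without its own 3 such clusters, pair 1 had 3.01 peaks per Mb in receptor windows (2.20 to 4.03) and pair 2 had 20.9 (18.5 to 23.5). These clusters were left out for their high counts in the same list, so the densities had to fall and are not set against the rest. Windows of all other protein-coding genes, drawn in the same way, held 2.77 peaks per Mb in pair 1 and 15.4 in pair 2.

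Counted by gene, the family stood close to or below the rest of the genome. In pair 1, 77 of the 1103 receptor genes had a summit inside or within 10000 bp (6.98%), against 8.09% of all autosomal coding genes. In pair 2, 356 did (32.3%), against 49.8%. Both lists had a summit at 57 receptor genes (5.17%, against 5.73%), which is 74.0% of the pair 1 genes and 16% of the pair 2 genes. Over all coding genes these shares were 70.8% and 11.5%. Gene length differs widely between these groups, with a median of 951 bp for receptors and 19260 bp for other coding genes, so the windows of receptors are shorter. A summit fell inside the gene itself for 16 receptors in pair 1 (1.45%, against 5.44%) and for 36 in pair 2 (3.26%, against 32.8%). When pair 2 was shortened by q to the length of pair 1, it had 133 receptor peaks at 139 receptor genes, against 146 peaks at 77 genes in pair 1. The shortened list kept the pair 2 peaks of highest -log10 q, whereas pair 1 ran down to 1.31, so the thresholds differ. The share of all coding genes in the shortened list was not counted.

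The receptor peaks were of ordinary height. Fold enrichment, as deposited by the authors, sets the IgD fragments at the summit against the background used for that peak, with 1 added to both. As solved below, the median background of receptor peaks was 2.76 fragments in pair 1 and 2.70 in pair 2, the commonest value of each list. At peaks with that value, the fold is not set against a level particular to the place. Its median was 3.46 for receptor peaks and 3.46 for other autosomal peaks in pair 1, and 3.78 and 3.78 in pair 2. The highest receptor peak reached 7.46 in pair 1 and 9.46 in pair 2, whereas other autosomal peaks reached 23.2 in pair 1 and 36.5 in pair 2. A median receptor peak rested on 12 IgD fragments in pair 1 and on 14 in pair 2, as solved from the deposited fold and p-value, so at the usual background a single fragment moves the fold by 0.266 in pair 1 and 0.270 in pair 2. A -log10 q of at least 5 was reached by 21 receptor peaks of pair 1 (14.4%, against 17.2% of all autosomal peaks) and by 185 of pair 2 (41.0%, against 38.9%). Median widths were 886.5 bp for receptor peaks and 841 bp for other peaks in pair 1, and 820 and 770 bp in pair 2. Blocks of 5000 bp or wider made up 8 receptor peaks of pair 1 (5.48%, against 8.62% of all autosomal peaks) and 35 of pair 2 (7.76%, against 2.73%). All 8 wide blocks of pair 1 and 23 of the 35 of pair 2 were in the same chromosome 2 cluster.

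**Figure D1:**
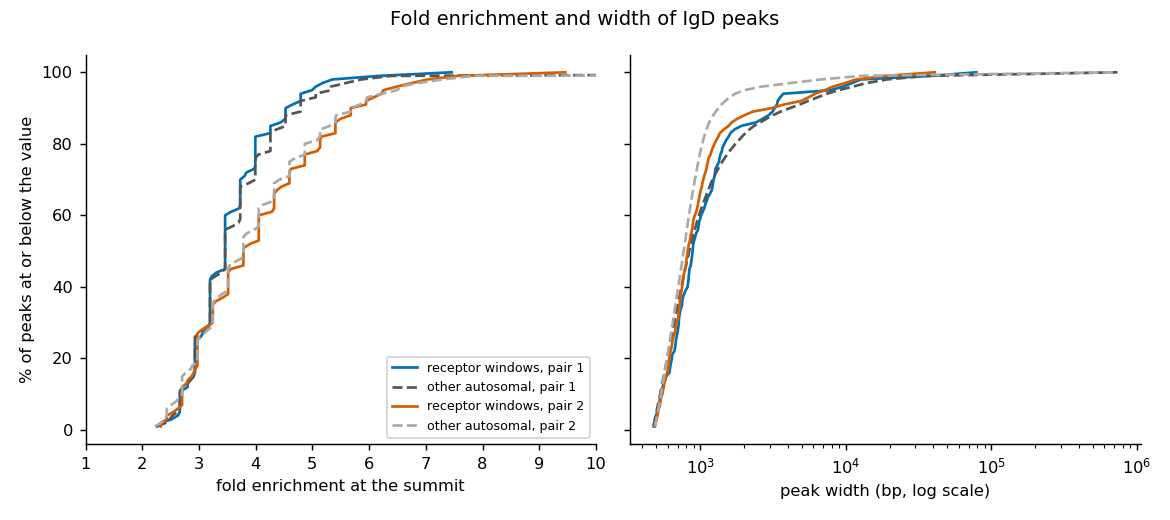
Cumulative percentage of peaks (vertical axis) at or below each fold enrichment (left, cut at 10) and each width in bp (right, log scale), for receptor peaks (solid lines) and other autosomal peaks (dashed lines) of each pair. The fold curves of receptor peaks run beside those of other peaks, with medians of 3.46 and 3.46 in pair 1 and 3.78 and 3.78 in pair 2, and the wide end of pair 2 holds more receptor peaks, 7.76% against 2.67% at 5000 bp or wider.

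Most receptor summits lay between genes. In pair 1, 124 summits (84.9%) were between genes, 20 (13.7%) inside a receptor gene and 2 inside another coding gene, Lypd9 and Nlrp14. In pair 2, 406 (90.0%) were between genes, 39 (8.65%) inside a receptor gene and 6 inside another coding gene. Receptor gene bodies make up 10.7% of the windows. The median distance from summit to the nearest receptor gene was 3185 bp in pair 1 and 4115 bp in pair 2. Within a run, defined here as peaks no more than 5000 bp from the next, 76 of the 146 pair 1 peaks and 127 of the 451 pair 2 peaks lay in runs of 3 or more. Runs of other autosomal peaks were not counted, so these numbers do not set receptor peaks apart.

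By chromosome, receptor peaks were on 9 chromosomes in pair 1 and on 15 in pair 2. Chromosome 2, with 287 receptor genes, held 61 of the pair 1 peaks and 141 of the pair 2 peaks. Chromosome 7, with 239 receptor genes, held 15 and 98. Chromosome 9, with 130 genes, held 10 and 42. Chromosome 16, with only 36 genes, held 25 receptor peaks in pair 1, which is 13.6% of the 184 pair 1 peaks of that chromosome, and 15 in pair 2. Chromosome 19, with 63 genes in 1 cluster, held 0 in pair 1 and 17 in pair 2. A count of 0 in its 1.12 Mb of windows allows up to 3.30 peaks per Mb, the upper end of the exact Poisson interval, and the density of the whole chromosome in pair 1 was 2.97.

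Of the 52 clusters, 18 had a receptor peak in pair 1 and 38 in pair 2. Both lists had one in 16 clusters, and 12 clusters had none in either. Among the 23 clusters of 10 or more genes, the density in the windows was above that of the chromosome in 9 for pair 1 and in 15 for pair 2, and 9 of the 23 had no pair 1 peak at all. The order of clusters by density differed between the lists, with a Spearman rho of 0.365 over these 23 clusters, given as a description. The clusters share both libraries of each pair and so are not independent points.

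**Figure D2:**
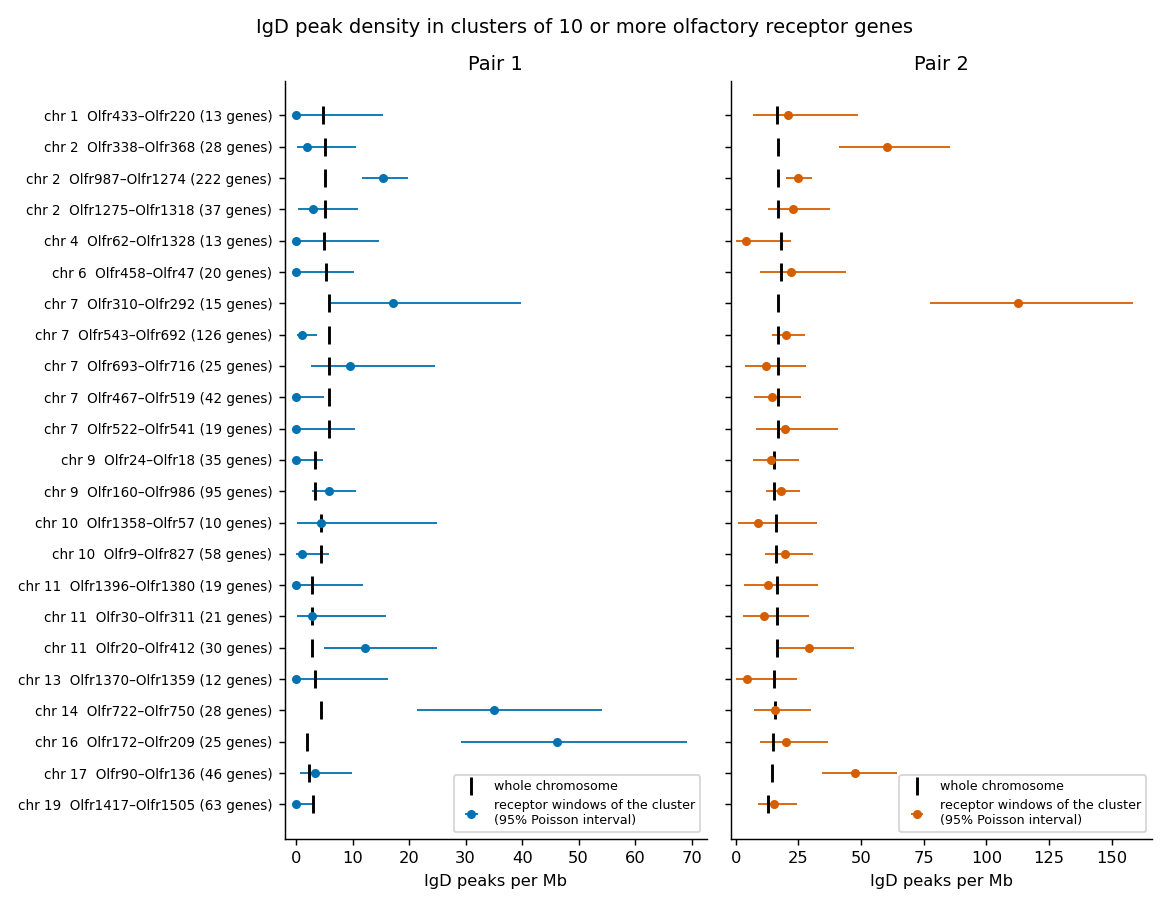
IgD peaks per Mb of receptor windows (dots, with 95% exact Poisson intervals as lines) in each of the 23 clusters of 10 or more receptor genes, and the density of the whole chromosome (black ticks), for pair 1 (left) and pair 2 (right); the horizontal scales differ. Pair 1 is highest in the chromosome 16 and chromosome 14 clusters at 46.1 and 35.1, and pair 2 in the chromosome 7 cluster from Olfr310 at 113 and the chromosome 2 cluster from Olfr338 at 60.5.

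The cluster with the most receptor genes, 222 genes from Olfr987 to Olfr1274 on chromosome 2, also had the most peaks in both lists, 58 in pair 1 and 94 in pair 2. Its density was 15.3 per Mb in pair 1 (11.6 to 19.8), against 5.06 on the whole chromosome, and 24.8 in pair 2 (20.1 to 30.4), against 17. The peaks were not spread over the cluster. All 58 pair 1 peaks, and 69 of the 94 in pair 2, lay in 2 stretches that were picked out after the values had been seen, so no test was made of them.

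The first stretch, 368 kb from Olfr152 to Olfr1167 (chr2:87782536-88150083) with 21 receptor genes, held 40 receptor peaks in pair 1 and 40 in pair 2. Peaks covered 79.0% of it in pair 1 and 61.9% in pair 2, and 16 of its genes in pair 1 and 19 in pair 2 had a summit inside or near. Its highest pair 1 peak was a block of 59371 bp (chr2:87950262-88009632) with a fold of 7.46 from 27 fragments, which is the highest of all receptor peaks in pair 1. In pair 2 the highest receptor peak, with a fold of 9.46 from 34 fragments, was a block of 30785 bp (chr2:87987647-88018431) that overlaps it. Next to it in pair 2 was the widest receptor block of that list, 40950 bp (chr2:87946103-87987052) with a fold of 7.30. The widest block of pair 1, 78965 bp (chr2:88014461-88093425), had a fold of only 3.31 from 23 fragments, with a local background of 6.25 fragments at the summit, against 2.76 at most peaks of the list. A background above the usual level by more than 5% was found at 15 of the 40 pair 1 peaks of the stretch (37.5%) and 7 of the 40 pair 2 peaks (17.5%), against 22.3% and 28.9% of autosomal peaks outside receptor windows. The other blocks among the 5 widest of pair 1 were also here, 13813 and 12582 bp near Olfr1166 with folds of 4.52 and 2.65 and 11523 bp near Olfr1152 with 4.26, as was a pair 2 block of 18973 bp near Olfr1167 with 4.60. The genes of the stretch belong to receptor families MOR173, MOR174, MOR177, MOR181 and MOR264, numbers that group receptors by protein likeness.

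The second stretch, 344 kb from Olfr1258 to Olfr1271 (chr2:89921944-90266428) with 15 receptor genes, held 18 receptor peaks in pair 1 and 29 in pair 2. Here the lists differed in kind: peaks covered 29.2% of the stretch in pair 1, where no peak reached 5000 bp, and 61.8% in pair 2, where 13 did. Its widest block in pair 2 was 28024 bp (chr2:90121799-90149822) with a fold of 5.24 from 35 fragments, over Olfr32. Of the pair 1 peaks of the stretch, 17 of 18 overlapped a pair 2 peak, and of the pair 2 peaks, 8 of 29 overlapped a pair 1 peak. Whether reads that fit several of these like genes were kept or dropped is not given in the sources used here, and the part of repeated sequence in the blocks was not tested.

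**Figure D3:**
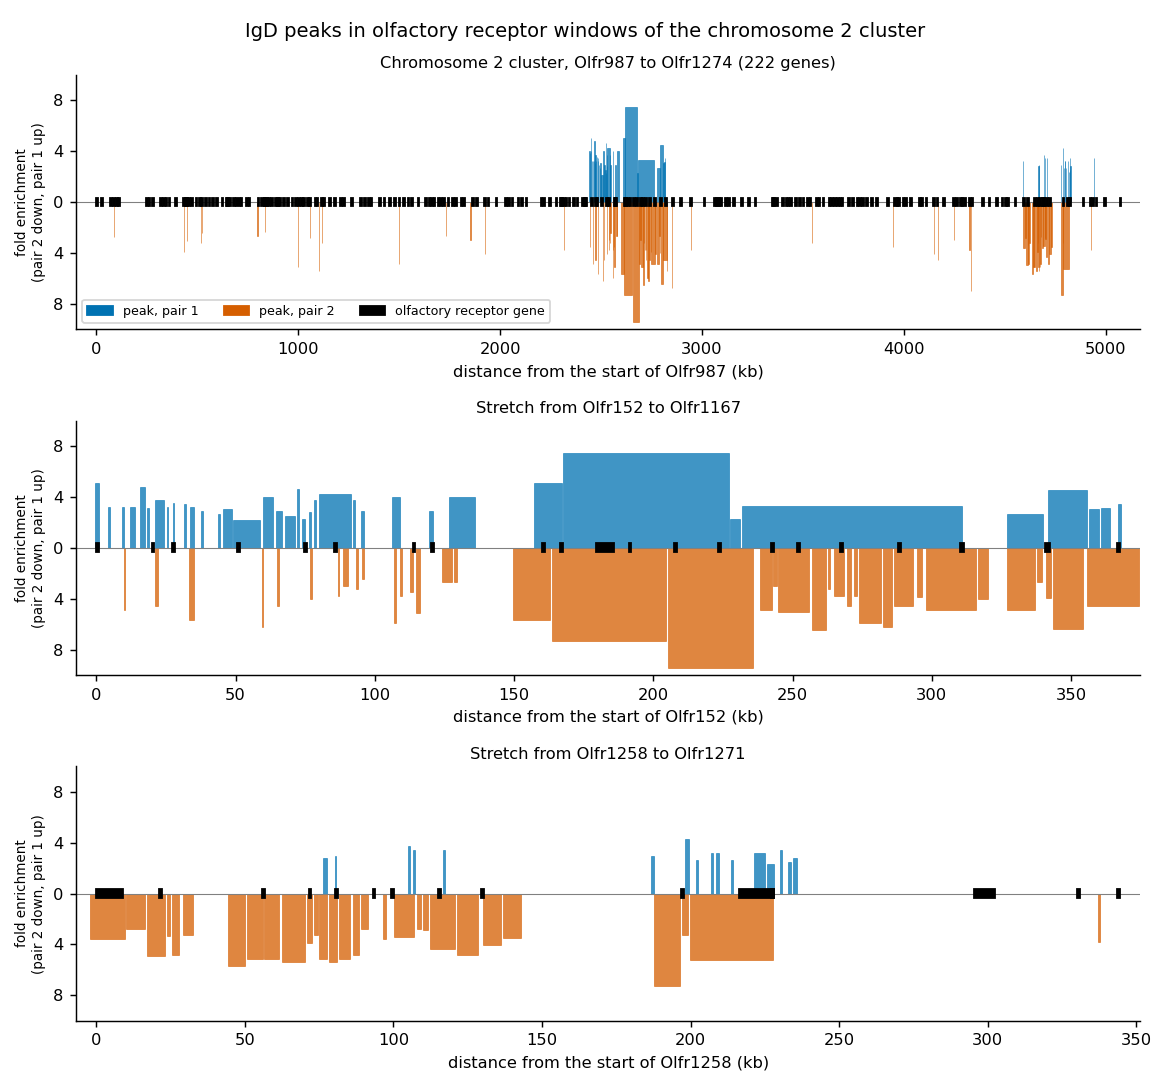
Receptor peaks along the chromosome 2 cluster of 222 genes (top) and along its 2 dense stretches (middle and bottom): each box spans a peak (horizontal axis, distance in kb from the start of the first gene) and its height is the fold enrichment, upward for pair 1 and downward for pair 2, with receptor genes in black. Both lists crowd into the same stretches, with 40 and 40 peaks in the first and 18 and 29 in the second, and folds reach 7.46 in pair 1 and 9.46 in pair 2.

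Much of the overlap between the lists lay in this cluster. Of the receptor peaks of pair 1, 47 of 146 shared at least 1 bp with a peak of pair 2 (32.2%, 95% Wilson interval 25.2 to 40.1, against 27.5% of all autosomal peaks). Of those of pair 2, 51 of 451 overlapped a pair 1 peak (11.3%, 8.71 to 14.6, against 6.23%). Inside the chromosome 2 cluster 36 of 58 pair 1 peaks (62.1%) and 42 of 94 pair 2 peaks (44.7%) did so. In all other clusters together the counts were 11 of 88 (12.5%, 7.13 to 21.0) in pair 1 and 9 of 357 (2.52%, 1.33 to 4.72) in pair 2. The cluster was set apart after its overlap had been seen, so these shares had to fall and are not set against all autosomal peaks. Blocks of 5000 bp or wider, which overlap more often, numbered 0 of the 88 and 12 of the 357. The overlaps were mostly made by wide blocks: of 64 overlapping pairs of receptor peaks, 49 had a block of 5000 bp or wider in at least one list, and their summits were 3920.5 bp apart at the median over all 64. A few blocks enter many of the 64, above all the pair 1 block of 78965 bp and the pair 2 block of 28024 bp. The 64 are therefore not independent of each other. Where both peaks were narrower than 5000 bp, 10.9% of pair 1 receptor peaks and 3.61% of pair 2 receptor peaks overlapped, against 11.8% and 2.80% of all autosomal peaks of that width. Summits within 200 bp of each other were found for 3 pair 1 and 4 pair 2 receptor peaks (2.05% and 0.887%, against 3.02% and 0.766%).

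**Figure D4:**
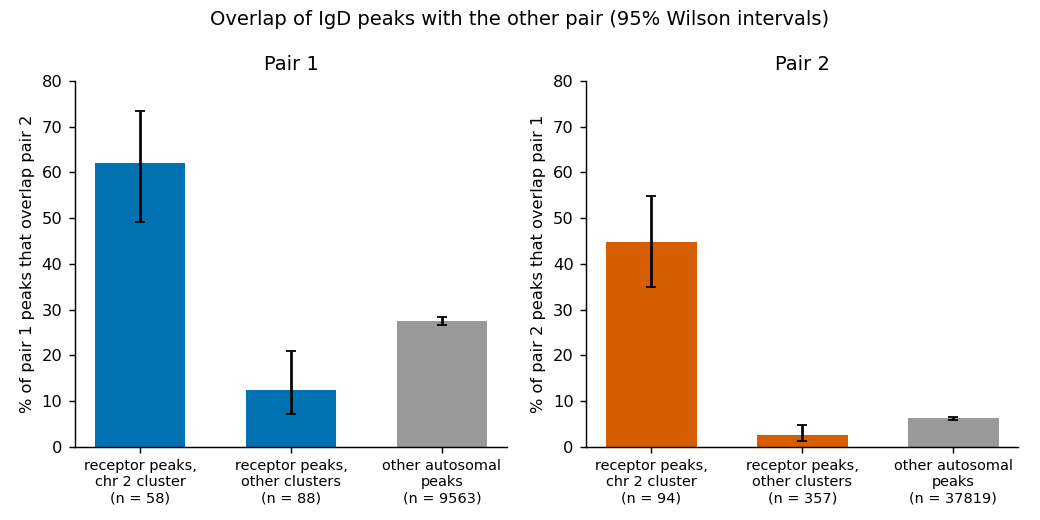
Percentage of peaks of each pair that overlap a peak of the other pair by 1 bp or more (bars, with 95% Wilson intervals), for receptor peaks of the chromosome 2 cluster from Olfr987, receptor peaks of all other clusters, and other autosomal peaks (grey). The chromosome 2 cluster stands at 62.1% in pair 1 and 44.7% in pair 2, and the other clusters at 12.5% and 2.52%. The grey bars stand at 27.4% and 6.17%. The cluster was set apart after its overlap had been seen, so the other clusters are not compared with the grey bars.

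Several other clusters had unequal counts in the lists, beside list lengths that also differ. On chromosome 16 the 25 genes from Olfr172 to Olfr209 had 23 peaks in pair 1, 46.1 per Mb (29.3 to 69.2) against 1.94 on the chromosome, and 10 in pair 2, 20.1 per Mb (9.62 to 36.9) against 14.8. Only 1 peak of each list overlapped the other there. On chromosome 14 the 28 genes from Olfr722 to Olfr750 had 35.1 peaks per Mb in pair 1 (21.4 to 54.1) against 4.30 on the chromosome, and 15.8 in pair 2 (7.21 to 29.9) against 15.6. All 20 pair 1 peaks lay at the 3 genes Olfr722, Olfr723 and Olfr724, which span 66.8 kb, where pair 2 had 3. The highest of them, at Olfr722 (chr14:49907612-49909114), had a fold of 6.66 from 24 fragments and no counterpart in pair 2. The other way round, the 46 genes of chromosome 17 from Olfr90 to Olfr136, beside the major histocompatibility complex, had 3 peaks in pair 1, 3.40 per Mb (0.700 to 9.92) against 2.28 on the chromosome, and 42 in pair 2, 47.5 per Mb (34.3 to 64.3) against 14.4. On chromosome 7 the 15 genes from Olfr310 to Olfr292 had 5 in pair 1, 17.1 per Mb (5.54 to 39.8) against 5.78, and 33 in pair 2, 113 per Mb (77.6 to 158) against 17, among them a block of 23119 bp at Olfr297 with a fold of 4.69. On chromosome 2 the 28 genes from Olfr338 to Olfr368 had 1 in pair 1, 1.89 per Mb (0.0478 to 10.5) against 5.06, and 32 in pair 2, 60.5 per Mb (41.3 to 85.3) against 17. Of the clusters in this paragraph, only the last was below its chromosome in either list. These clusters were named for their unequal counts, so the differences are a description.

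**Figure D5:**
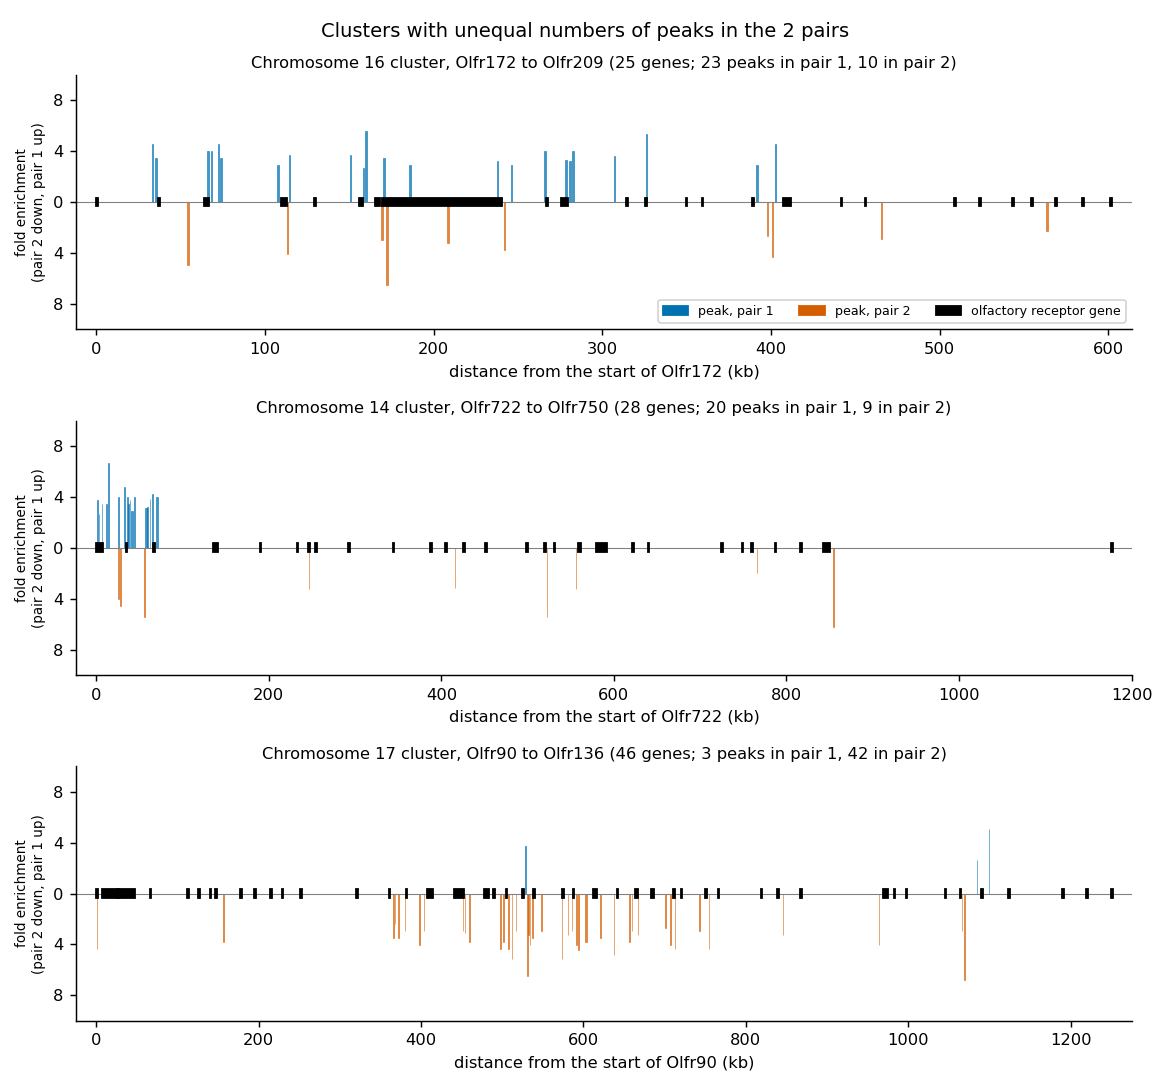
Receptor peaks along the clusters of chromosomes 16, 14 and 17, chosen for their unequal counts: boxes span the peaks (horizontal axis, distance in kb from the start of the first gene), heights give fold enrichment upward for pair 1 and downward for pair 2, and receptor genes are black. Chromosome 16 shows 23 and 10 peaks in pair 1 and pair 2, chromosome 14 shows 20 and 9 with all pair 1 peaks at its left end, and chromosome 17 shows 3 and 42.

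The remaining large clusters lay on either side of their chromosome's density. The class I cluster of chromosome 7, 126 genes from Olfr543 to Olfr692, had 2 peaks in pair 1, 1.03 per Mb against 5.78 on the chromosome, and 39 in pair 2, 20.1 per Mb against 17. The chromosome 9 cluster of 95 genes from Olfr160 to Olfr986 had 10 in pair 1, 5.79 per Mb against 3.29, and 31 in pair 2, 18 per Mb against 15.5, with 3 of the 10 and 2 of the 31 overlapping the other list. The chromosome 10 cluster of 58 genes from Olfr9 to Olfr827 had 1 in pair 1, 1.04 per Mb against 4.46, and 19 in pair 2, 19.7 per Mb against 16. The chromosome 7 cluster of 42 genes from Olfr467 to Olfr519 had 0 in pair 1, with 5.78 per Mb on the chromosome, and 11 in pair 2, 14.6 per Mb against 17. The chromosome 11 cluster of 30 genes from Olfr20 to Olfr412 had 7 in pair 1, 12.1 per Mb (4.87 to 25) against 2.72, and 17 in pair 2, 29.4 per Mb (17.1 to 47.1) against 16.6. By class, 125 class I genes had 1.04 peaks per Mb in pair 1 (0.127 to 3.77) and 20.4 in pair 2 (14.5 to 27.9). The 955 class II genes had 8.17 (6.89 to 9.63) and 23.1 (20.9 to 25.5). Of the 125 class I genes 121 are in 1 cluster, so class and cluster cannot be told apart. Families of 10 or more genes at the ends of the range are given as a description, beside 6.98% of all receptors and 8.09% of all coding genes in pair 1, and 32.3% and 49.8% in pair 2. MOR174 with 14 genes had a summit at 6 genes in pair 1 (42.9%) and 11 in pair 2 (78.6%), and many of its genes lie in the first chromosome 2 stretch. MOR111 with 10 genes had 0 in pair 1 and 8 in pair 2 (80%), and MOR162, MOR225 and MOR261 had 0 in both lists.

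Of the 57 receptor genes with a summit in both lists, 23 were in the chromosome 2 cluster from Olfr987, 7 in the chromosome 9 cluster from Olfr160, 6 in the chromosome 16 cluster and 4 in the chromosome 11 cluster from Olfr20. Overlapping peaks were found at 32 of the 57, but the highest peaks of a gene in the 2 lists need not be those that overlap. For the genes named next, summits of the highest peaks were 3996 bp apart at Olfr1160 and 14247 bp at Olfr297. They were 13223 bp apart at Olfr181 and Olfr183, 2390 bp at Olfr919 and 10089 bp at Olfr1269. Ranked by the mean rank of the highest fold in each list, Olfr1160 came first, with folds of 7.46 in pair 1 and 9.46 in pair 2, the blocks described above. Olfr297 on chromosome 7 followed with 5.25 in pair 1 and 7.57 in pair 2. Olfr181 and Olfr183 on chromosome 16 shared peaks of 5.59 in pair 1 and 6.49 in pair 2. The gene model of Olfr183 spans 71199 bp, far longer than the coding exon of a receptor, and 3 of its summits in each list lay inside that span. Olfr919 on chromosome 9 had 4.79 in pair 1 and 6.22 in pair 2, from narrow peaks of 849 and 1130 bp that did not overlap. Olfr1269 had 4.26 in pair 1 and 7.30 in pair 2.

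The next genes of that order kept to the same places. In the first chromosome 2 stretch they were Olfr1155, Olfr1166, Olfr1148, Olfr1153, Olfr152, Olfr1143, Olfr1145, Olfr1151, Olfr1154 and Olfr1162. Elsewhere they were Olfr299 beside Olfr297, Olfr115 and Olfr116 on chromosome 17, Olfr723 and Olfr724 on chromosome 14, Olfr930 on chromosome 9, Olfr175 on chromosome 16, and Olfr403 and Olfr43 on chromosome 11. Over the first 25 genes the highest fold ran between 3.31 and 7.46 in pair 1 and between 4.60 and 9.46 in pair 2. Olfr115 and Olfr116 were near the same pair 1 peak, of fold 3.73, and the same pair 2 peak, of fold 6.49, as were Olfr403 and Olfr43 with 3.46 in pair 1 and 5.95 in pair 2, so neighbours in this list are not separate observations. Olfr930, printed above, had 4.79 in pair 1 and a wide block of 18622 bp with 4.86 in pair 2.

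Some high peaks of the single lists outside the chromosome 2 cluster overlapped the other list and others did not. Of all autosomal peaks, 27.5% in pair 1 and 6.23% in pair 2 overlapped the other list, so lack of a partner is usual. In pair 1 the highest after those of chromosomes 2 and 14 were at Olfr180 with a fold of 5.59, inside Olfr191 with 5.33, both on chromosome 16, and at Olfr297 with 5.25, and of these 3 only the peak at Olfr297 overlapped pair 2. In pair 2 a peak 9805 bp from Olfr557, a class I gene of chromosome 7, had 8.38 from 30 fragments. Peaks near Olfr798, Olfr341, Olfr297, Olfr870 and Olfr952 were tied at 7.57, each from 27 fragments, and of these only the one at Olfr297, a block of 10755 bp, overlapped pair 1.

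Among receptors studied for their ligands or their choice, only Olfr73 had a summit near in both lists. Of 11 such genes 10 were matched, and 2 in pair 1 and 5 in pair 2 had a summit inside or near. The shares were 6.98% and 32.3% of all receptors, and 8.09% and 49.8% of all coding genes. With 10 genes the count is too small to set these receptors apart. Olfr17, the P2 receptor of many gene-targeting studies, had a pair 1 peak of fold 2.93 from 10 fragments at 696 bp, and its nearest pair 2 summit was 19.9 kb away. Olfr73 lay under blocks of the first stretch, of 78965 bp with a fold of 3.31 in pair 1 and of 11171 bp with 5.09 in pair 2. Olfr1507 (MOR28), whose expression depends on the H enhancer, had a pair 2 peak of 6.76 from 24 fragments at 4413 bp, and its nearest pair 1 summit was 1325 kb away. Olfr544, a receptor of azelaic acid, had 4.60 in pair 2, Olfr78, a receptor also found in the carotid body, had 2.93, and Olfr16 (MOR23), a lyral receptor, had 2.87, each with no pair 1 summit in reach. Olfr2 (I7), Olfr15, Olfr160 (M72) and Olfr1393 had none in either list.

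A fixed list of 20 genes covered receptor choice, trafficking and signalling. Of its genes, 2 in pair 1 and 9 in pair 2 had a summit inside or near, close to the shares of all coding genes given above. In pair 1 these were Cnga2, a subunit of the cyclic nucleotide-gated channel on chromosome X, with a fold of 3.73, and Lbr, the lamin B receptor that tethers heterochromatin, with 3.38. In pair 2 they included Gnal, the olfactory G protein alpha subunit, with 3.24, Adcy3, the adenylyl cyclase of olfactory cilia, with 4.33, Ano2, a calcium-activated chloride channel, with 5.14, and Cngb1, another channel subunit, with 3.51. Lbr had 5.68 in pair 2, and it was the only gene of the list with a summit near in both pairs, 9786 bp away in pair 1 and 7834 bp away in pair 2. Ebf1, which is active in pro-B cells, held 8 summits of pair 2 inside its 389997 bp, the highest with 5.95, whereas the nearest pair 1 summit was 375.6 kb away. Chromosome 11 as a whole held 16.6 peaks per Mb in pair 2 and 2.72 in pair 1. At that density a gene of this length would hold several pair 2 summits, so the count does not set Ebf1 apart. Lhx2, Ldb1, Kdm1a, Omp and Rtp1 had no summit inside or within 10000 bp in either list.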

How the data were processed

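ChIP-seq of sorted WT pro-B cells gave 2 anti-IgD and 2 mouse IgG libraries. The submitters' processing notes name HISAT2, MACS2, ChIPseeker and mm10. Not given in the sources used here are versions and settings, such as the treatment of duplicates, of reads with several matches and of regions left out. In the labels, a shared number ties each peak list to 1 IgD and 1 IgG library. The fold (a ratio over the background used for the peak) and the -log10 p and -log10 q of each peak are the authors' values as deposited, and the deposited score played no part. Pair 1 ended at a -log10 q of 1.31 and pair 2 at 1.30. Library depths were not used here, and depth may differ between the pairs.

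Genes and promoter windows came from RefSeq tables on GRCm38.p6, in which 402 rows off the assembled chromosomes were left out of the gene table, leaving 49595 genes. No genome sequence or strand of genes outside the promoter table was used. Receptor class came from the MOR number among the synonyms, 42 or lower for class I and 100 or higher for class II, known for 1080 genes. Fragments were solved from the fold and from an upper Poisson tail for p, which succeeded to within 0.01 of the -log10 p at all peaks. This assumes unscaled IgD fragments, which the sources do not state. Genes were named by rule: the first 25 with a summit in both lists by mean rank of fold, the 5 highest and 5 widest peaks of each list, the large clusters, and fixed lists of well-studied receptors and of choice, trafficking and signalling genes. The members and lists were chosen with earlier results of these data known. Counting steps were checked on simulated data, with 300 of 300 memberships, 50 of 50 overlaps and 294 of 294 fragment counts recovered. The known answers came from the same rules and equations, so the check covers the computing only. It does not show that the deposited values follow those equations. Alternatives changed the distance, q, fold, width, list length, overlap rule and cluster gap. Scripts ran in Python 3.11.15 with matplotlib 3.10.9, scipy 1.17.1, pandas 2.3.3 and numpy 2.4.6.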

Additional observations from a re-analysis of the deposited data

Results flagged for a closer look

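Peaks were also found at receptor loci that the rule leaves out. Near the 6 coding receptor genes of chromosome X there were 4 peaks in pair 1, above the 3 counts that a count of 0 allows, and 3 in pair 2, which is not above it. Near 315 receptor pseudogenes, outside the windows of coding receptors, there were 23 peaks in pair 1 and 64 in pair 2. Per length this was 7.997 peaks per Mb in pair 1 and 22.3 in pair 2, beside 7.37 and 22.8 in the windows of coding receptors and 4.01 and 15.9 in the rest of the autosomes. The pseudogene windows cover 2.88 Mb, and any stretch of that length with the usual density of peaks would pass a floor of 3 counts. For them the floor alone sets nothing apart. The chromosome X windows cover only 0.126 Mb, with 31.8 peaks per Mb in pair 1 and 23.9 in pair 2. These were not set against the density of chromosome X. The median fold of the pseudogene peaks was 3.46 in pair 1 and 3.82 in pair 2, and the highest reached 6.39 in pair 1 and 8.92 in pair 2.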

How the results depend on the processing

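No paired analysis was possible because each pair gives a single peak list and no result comes from a test. Peak lists are short of fragments, with a median of 12 in pair 1 and 14 in pair 2 at a receptor peak, and they hold no signal below the q threshold. A gene without a peak is therefore not shown to lack IgD signal. Of 94 alternative values, 35 stayed inside the limits set for a move, which are wide for counts: pseudogenes added gave 106 genes in pair 1 and 448 in pair 2 and are among the 35. The other 59 moved further, most of them counts that a stricter rule must lower; the cause was otherwise not tested. Leaving out a pair gave 77 and 356 genes, against 376 in either list. With gaps of up to 100000 bp the clusters with a receptor peak numbered 19 in pair 1 and 53 in pair 2, out of 77 clusters. With gaps of up to 1000000 bp they numbered 18 and 34 out of 47, against 18 and 38 out of 52.

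In pair 1, the 146 peaks and 77 genes became 20 and 16 with the summit inside the gene, 70 and 48 at 3000 bp, 243 and 177 at 50000 bp, 21 and 24 at -log10 q of at least 5, and 26 and 29 at a fold of at least 4. In pair 2, the 451 peaks and 356 genes became 39 and 36, 183 and 152, 726 and 805, 185 and 182, and 213 and 207 under the same rules, and 133 and 139 in the shortened list. Shares of all coding genes with a summit inside, and of all autosomal peaks at that q, are given above. For the other rules such shares were not counted. The counts therefore show how far the receptor values move, not if other genes move alike. Chosen after seeing the data, leaving out the chromosome 2 cluster gave 88 peaks and 51 genes in pair 1, and leaving out the 3 richest clusters gave 45 and 36 in pair 1 and 276 and 229 in pair 2.

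Overlapping receptor peaks, 47 (32.2%) in pair 1 and 51 (11.3%) in pair 2, became 7 (4.79%) and 7 (1.55%) with 50% reciprocal overlap, 3 (2.05%) and 4 (0.887%) with summits within 200 bp, 5 (23.8%) and 9 (4.86%) at -log10 q of at least 5, 15 (10.9%) and 15 (3.61%) for narrow peaks, and 11 (12.5%) and 9 (2.52%) without the chromosome 2 cluster. With 50% reciprocal overlap the shares of all autosomal peaks were 3.92% in pair 1 and 0.996% in pair 2. Those for near summits and narrow peaks are given above. At -log10 q of at least 5 the median fold of receptor and other peaks was 4.79 and 4.79 in pair 1 and 5.14 and 4.92 in pair 2, and the median width 1100 and 1686 bp in pair 1 and 880 and 778 bp in pair 2. Among peaks narrower than 5000 bp, the median width of other peaks was 795 bp in pair 1 and 761 bp in pair 2.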

Other observations

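Other chemosensory receptor families were covered differently by the lists. The vomeronasal type 1 receptors (229 Vmn1r genes), which detect pheromones, had 9.55 peaks per Mb of windows in pair 1 (6.96 to 12.8) and 13.8 in pair 2 (10.6 to 17.6). The vomeronasal type 2 receptors (122 Vmn2r genes) had 8.84 in pair 1 (6.54 to 11.7) and 14.1 in pair 2 (11.1 to 17.6). Taste receptors (38 Tas1r and Tas2r genes) had 0 peaks in pair 1, which allows up to 5.58 per Mb, and 27 in pair 2, or 40.8 per Mb (26.9 to 59.4). Trace amine and formyl peptide receptors (22 Taar and Fpr genes) had 0 in pair 1 and 6 in pair 2. Olfactory receptors had 7.37 and 22.8 per Mb. The differences between families were not tested.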
